A study of Mus musculus with 24 samples.

Results

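The genes described here are 10 transcripts of male mouse liver whose levels are known to be kept up by pulses of growth hormone: the major urinary proteins Mup3, Mup11, Mup20 and Mup21, and Hsd3b5, Elovl3, Cyp2d9, Cyp4a12a, Slco1a1 and Selenbp2. They were chosen by name, and all 10 were found among the 15160 genes of the deposited table and were among the 13336 genes that passed the filter on low counts. They were proposed with the effect of diet on them in view, so their differences between diets are given as a description. The numbers of genes called in the main fit stand beside the share over all genes, and nothing is read from them. Most counts from other fits stand without that share. Liver RNA was sequenced from 24 male mice, 1 library of 3′ end reads per mouse, with 6 mice in each of 4 groups. Every mouse carried floxed alleles of Nfe2l2, the gene of the transcription factor NRF2, on both chromosomes. The WT groups were littermates without Cre. The NRF2 KO groups also carried a Cre transgene driven by the albumin promoter, which removes exon 5 of Nfe2l2 in hepatocytes. The control diet (Con) held 0.86% methionine and the methionine-restricted diet (MR) 0.17%. Mice were 8 weeks old when the diets began. In the paper's experiment with 8 weeks of diet, calorimetry and a rest in home cages came between those weeks and tissue harvest. Livers were therefore taken later than the end of the 8 weeks, and the diet given in that interval is not stated. The labels give an age of 5 months at harvest, which followed a fast of 4 h.

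In male rodents the pituitary releases growth hormone in separated pulses, and in females the hormone is present almost continuously. Each pulse activates the receptor GHR and its kinase JAK2 in the hepatocyte, which activate the transcription factor STAT5b, and this intermittent signal keeps a male pattern of transcripts high. The female pattern holds back many of these genes, in part through the repressor CUX2, and raises others, among them several Cyp2a, Cyp2b and Cyp3a genes.

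The 4 urinary protein genes lie in the Mup cluster on chromosome 4 of GRCm38, all on the minus strand: Mup11 from 60658466 to 60662411, Mup20 from 62050234 to 62054158, Mup3 from 62083476 to 62087342 and Mup21 from 62147932 to 62150863. Their family arose by duplication, and the start regions below show how alike members of it are. RefSeq promoter windows on GRCm38.p6 were found for 7 of the 10 genes, Mup3, Mup11, Mup21, Hsd3b5, Cyp2d9, Slco1a1 and Selenbp2, and not for Mup20, Elovl3 and Cyp4a12a. The stretches printed run 5′ to 3′ on the minus strand from 250 bases before to 30 bases after the annotated start, and capitals mark runs of at least 12 bases found in all 3 of them. They lie on chromosome 4 from 62087288 to 62087567 for Mup3, from 60662366 to 60662645 for Mup11 and from 62150812 to 62151091 for Mup21.
Mup3: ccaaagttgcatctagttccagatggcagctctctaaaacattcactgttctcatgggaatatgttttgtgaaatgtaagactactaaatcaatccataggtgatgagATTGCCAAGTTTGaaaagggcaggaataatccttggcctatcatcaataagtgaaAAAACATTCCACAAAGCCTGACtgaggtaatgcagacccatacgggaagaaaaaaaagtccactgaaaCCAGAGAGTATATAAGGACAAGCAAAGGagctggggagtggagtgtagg
Mup11: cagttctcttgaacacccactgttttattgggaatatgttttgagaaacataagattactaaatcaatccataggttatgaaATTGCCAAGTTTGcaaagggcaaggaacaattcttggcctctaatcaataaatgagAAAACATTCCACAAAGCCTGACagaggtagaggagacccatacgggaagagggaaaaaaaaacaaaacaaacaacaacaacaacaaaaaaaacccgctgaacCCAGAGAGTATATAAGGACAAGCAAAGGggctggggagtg
Mup21: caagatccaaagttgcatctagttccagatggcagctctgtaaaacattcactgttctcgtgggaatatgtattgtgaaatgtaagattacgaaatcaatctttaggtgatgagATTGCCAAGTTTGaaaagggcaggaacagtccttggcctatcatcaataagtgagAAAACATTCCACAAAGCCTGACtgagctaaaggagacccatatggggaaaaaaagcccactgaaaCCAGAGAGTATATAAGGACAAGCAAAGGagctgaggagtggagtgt
The shared runs covered 63 of the 280 bases. In pairwise alignment Mup3 and Mup21 were identical at 90.21% of positions, Mup3 and Mup11 at 68.57%, and Mup11 and Mup21 at 66.98%. The palindromic STAT5 site TTCNNNGAA, which reads the same on both strands, was in 0 of the 7 windows of 300 bases and in 2726 of all 32851 such windows of the genome (8.298%). Distal sites were not searched.

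Likeness between family members also bears on the counts, because reads come from the 3′ end. Of the 251 stretches of 50 bases in the last 300 bases of the transcript, 61.35% of those of Mup11 also occur in another gene, most often Mup16, against 17.93% for Mup21, 8.765% for Mup20 and 6.375% for Mup3. Cyp4a12a shares 51.39% with Cyp4a12b, Selenbp2 shares 48.61% with Selenbp1 and Cyp2d9 shares 11.16% with other Cyp2d genes, while Hsd3b5, Elovl3 and Slco1a1 share none. Values of Mup11, Cyp4a12a and Selenbp2 are therefore uncertain as to which copy they count. The last exons of Hsd3b5 and Elovl3 overlap Zfp697 and Pitx3 on the opposite strand.

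WT_CON_7604 and WT_MR_7612 do not enter the main values, since the study removed 2 outlier mice, which leaves 5 mice in each WT group and 6 in each NRF2 KO group. The 22 libraries held 6197291 to 22068338 counts. Levels are given in CPM, the count of a gene relative to the library's total after scaling by edgeR's TMM factors. Nfe2l2, the deleted gene, was read at 94.0 to 125 CPM in 9 of the 10 WT mice and at 202 to 339 CPM in the NRF2 KO mice, and the library labelled WT_CON_7607 went against its label with 324 CPM. The 3′ end can lie outside the deleted stretch, so these reads show that the genotypes differ but not that the allele is null. The hepatocyte markers Alb, Apoa1, Ttr, Trf, Fgb, Apob and Cps1 summed to 82110 to 138700 CPM in the 22 mice, and none of them was at 0. In bulk liver, fewer cells of a type and less RNA per cell cannot be told apart.

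On MR, all 10 genes were lower than on Con in both genotypes by edgeR's model, with a median log2 fold change of -1.76 in WT and -3.14 in NRF2 KO. The model compares mean counts of groups, so a high mouse weighs more in it than in a mean of log2 levels. For Mup20 in WT it gave -0.34, and limma on log2 values of the deposited normalized counts gave -1.39. Selenbp2 in WT went the other way, with -3.22 and -3.02. The same median over all 13336 genes tested was -0.01 in WT and within 0.01 of 0 in NRF2 KO. In WT, 4 of the 10 were called lower by edgeR's quasi-likelihood test at a Benjamini-Hochberg adjusted p under 0.05, where 6.91% of all genes tested were called lower. In NRF2 KO 10 of the 10 were, where 6.34% of all genes were. In a fit that also held a clock gene score, described at the end, Mup20 (0.72) and Cyp4a12a (0.19) were on the other side of 0 in WT. The plot of levels by mouse shows every value.

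**Figure D1:**
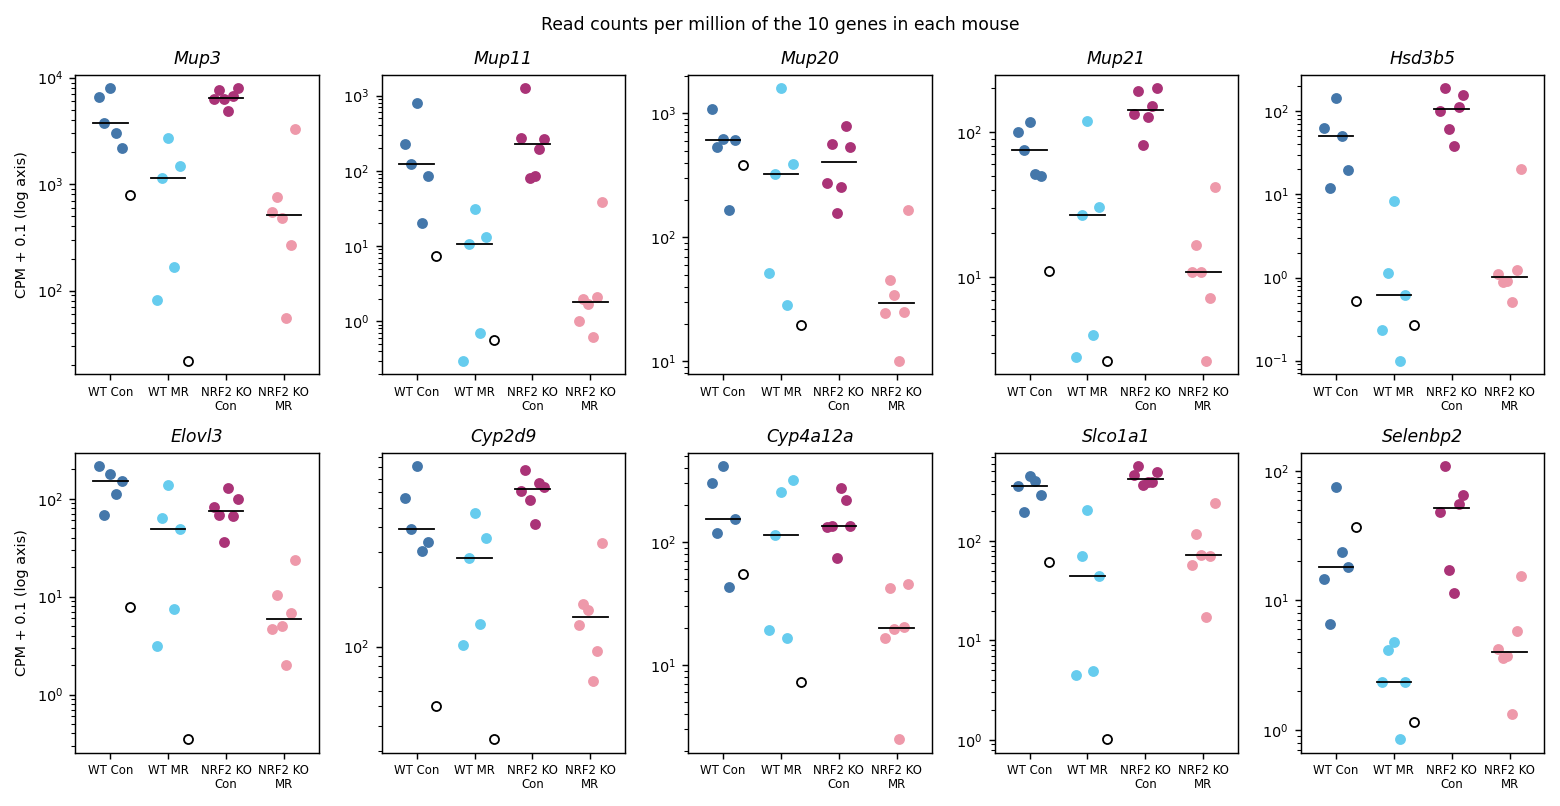
CPM plus 0.1 on a log axis for each of the 10 genes in the 4 groups. Filled points are the 22 mice of the fit, bars are group medians and open points are WT_CON_7604 and WT_MR_7612. The MR groups lie lower and spread over a wider range than the Con groups, except for Selenbp2 in WT, where the range is narrower on MR. In NRF2 KO MR, 1 mouse is above the other 5 for every gene.

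The urinary proteins are small carriers of pheromones that the liver secretes and the kidney passes into urine, and Mup3 had the most reads of the 16 Mup genes in the table. Mup3 stood at 6536, 3747, 7969, 2989 and 2200 CPM in the WT Con mice and at 81.6, 1138, 2707, 167 and 1477 CPM in the WT MR mice. In NRF2 KO it ran from 4829 over a median of 6497 to 7966 CPM on Con and from 54.7 over 509 to 3315 CPM on MR. The WT diet groups overlapped through 1 mouse, WT_MR_7613, and the NRF2 KO diet groups did not overlap. The log2 fold change on MR was -2.07 ± 0.89 (SE) in WT and -2.87 ± 0.83 in NRF2 KO.

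Mup11 stood at 226, 124, 790, 20.4 and 85.5 CPM in WT Con and at 0.199, 10.4, 31.4, 0.603 and 12.9 CPM in WT MR. The NRF2 KO mice held 80.2 to 1253 CPM on Con, with a median of 228, and 0.512 to 38.1 CPM on MR, with a median of 1.71. Only WT_MR_7613 reached into the range of the WT Con mice, which its lowest member, the library labelled WT_CON_7607, sets at 20.4 CPM. The log2 fold changes were -4.47 ± 1.33 and -5.62 ± 1.28. The WT value was -5.29 without WT_MR_7613 and -3.34 without WT_CON_7605. The NRF2 KO value was -8.04 without KO_MR_7632 and -4.62 without KO_CON_7618. Over the 22 mice the NRF2 KO value was the largest of the 10 genes, on the gene whose 3′ end is shared most with other copies.

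Mup20 encodes darcin, a male pheromone that attracts females. It stood at 1090, 532, 617, 166 and 614 CPM in WT Con and at 51.7, 323, 1594, 28.2 and 387 CPM in WT MR, so that 1 WT MR mouse was above every WT Con mouse and 2 were below them all. In NRF2 KO it ran from 158 over 407 to 785 CPM on Con and from 10.04 over 29.6 to 166 CPM on MR, with 5 of the 6 MR mice below all Con mice. The log2 fold change was -0.34 ± 0.87 in WT, smaller than its standard error, and -3.08 ± 0.86 in NRF2 KO. Without WT_MR_7613 the WT value was -1.61, and without WT_CON_7602 it was -0.03.

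Mup21 stood at 99.9, 75.4, 118, 51.0 and 50.0 CPM in WT Con and at 2.72, 26.6, 119, 3.92 and 30.6 CPM in WT MR. Its NRF2 KO values went from 81.7 over 143 to 200.4 CPM on Con and from 2.56 over 10.8 to 41.8 CPM on MR, without overlap. In WT, 4 of the 5 MR mice were below all Con mice and WT_MR_7613 was above them. The log2 fold changes were -1.10 ± 0.74 and -3.33 ± 0.73. Without WT_MR_7613 the WT value was -2.26, and without WT_MR_7609 it was -0.79.

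Reads that fit several Mup genes may be split among them in ways that the counts do not show, so the 16 Mup genes were also summed before the fit. In WT the sum was 5989 ± 3283 CPM (SD, n = 5) on Con and 1682 ± 1799 CPM (n = 5) on MR. In NRF2 KO it was 7729 ± 1671 CPM (n = 6) on Con and 993 ± 1322 CPM (n = 6) on MR. MR against Con gave the sum a log2 fold change of -1.83 ± 0.89 in WT and -2.96 ± 0.84 in NRF2 KO. Mup3 made up 58.9% to 93.2% of the sum in the 22 mice, so the sum mostly repeats Mup3. Of the 10 other Mup genes tested, 6 were called lower on MR in WT, where 6.91% of all genes were, and 9 in NRF2 KO, where 6.34% were, with medians of -2.36 and -3.23. Those with the largest differences were Mup17 (-5.09), Mup12 (-3.50), Mup1 (-3.29) and Mup16 (-2.85) in WT, and Mup1 (-4.06), Mup12 (-3.90), Mup16 (-3.38) and Mup18 (-3.27) in NRF2 KO. In WT Con, WT_CON_7605 held 327.5 CPM of Mup17, 233 of Mup12, 103 of Mup1 and 228 of Mup16. The medians of the 5 WT Con mice were 8.63, 33.2, 15.3 and 48.55 CPM in that order, so these WT differences lean on that mouse. In WT the count of 6 went to 0 without WT_CON_7605 and to 9 without WT_MR_7613.

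**Figure D2:**
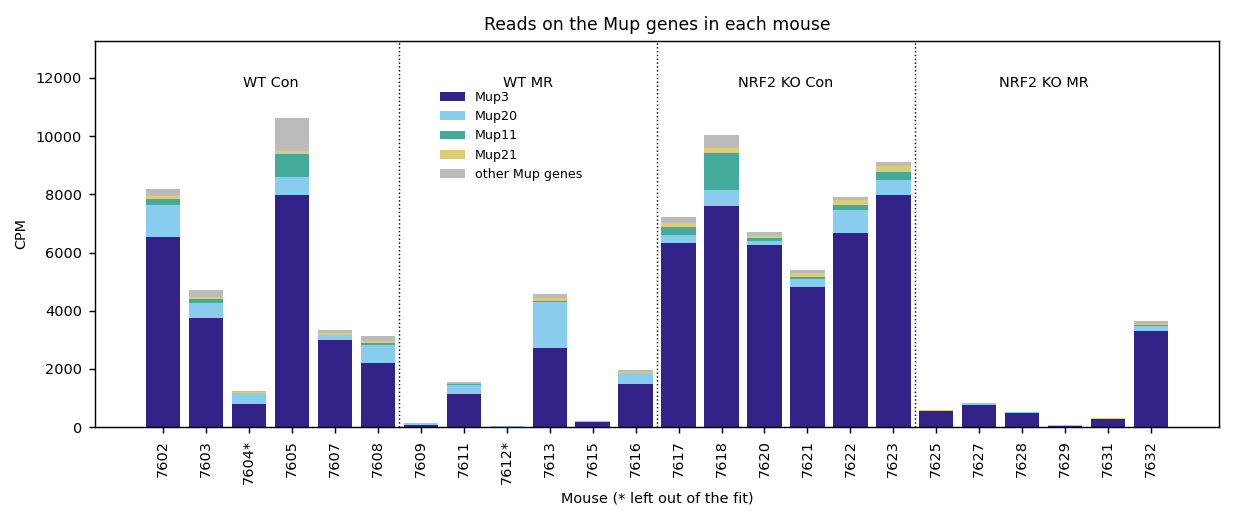
CPM of the Mup genes in each of the 24 mice, stacked as Mup3, Mup20, Mup11, Mup21 and the 12 others together, in the 4 groups. Mup3 makes up most of the reads in 23 of the 24 mice, and the sums of WT MR run from 138.5 to 4559 CPM among the mice of the fit.

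Hsd3b5 encodes a hydroxysteroid dehydrogenase of male liver that acts on steroid hormones, and it lies on chromosome 3 from 98618634 to 98630252. It stood at 63.8, 12.01, 145, 50.3 and 19.8 CPM in WT Con and at 0.133, 1.04, 8.13, 0.0 and 0.518 CPM in WT MR. The library at 0 had no count of Hsd3b5, which at its depth allows up to 0.452 CPM (3 counts, counting error only), and the next lowest had 2 counts. Among NRF2 KO mice it ran from 38.5 over 107 to 189.9 CPM on Con and from 0.410 over 0.914 to 20.2 CPM on MR. The diet groups overlapped in neither genotype, and the log2 fold changes were -4.89 ± 1.13 and -4.84 ± 0.94. Without WT_MR_7613 the WT value was -6.78, and without WT_CON_7605 it was -4.21. The NRF2 KO value was -7.02 without KO_MR_7632 and -4.58 without KO_MR_7629.

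Elovl3, on chromosome 19 from 46131897 to 46135694, encodes an elongase of very long chain fatty acids. It stood at 214, 67.7, 178, 111 and 152 CPM in WT Con and at 3.05, 63.1, 139, 7.38 and 49.1 CPM in WT MR, with 4 of the 5 MR mice below all Con mice. In NRF2 KO it ran from 35.9 over 75.5 to 128 CPM on Con and from 1.90 over 5.81 to 23.5 CPM on MR, without overlap. The log2 fold changes were -1.45 ± 0.71 and -3.23 ± 0.72. The WT value was -2.20 without WT_MR_7613 and -1.14 without WT_MR_7609.

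The cytochromes Cyp2d9, a testosterone hydroxylase on chromosome 15 from 82433437 to 82456845, and Cyp4a12a, a hydroxylase of arachidonic acid on chromosome 4 from 115299046 to 115332815, showed the smallest differences of the 10 genes in WT beside Mup20. Cyp2d9 stood at 561, 389, 806, 302 and 338 CPM in WT Con and at 101, 279.5, 468, 131 and 353 CPM in WT MR. Its NRF2 KO values went from 415 over 621 to 774 CPM on Con and from 67.0 over 140.2 to 332 CPM on MR. The WT groups overlapped and the NRF2 KO groups did not, with log2 fold changes of -0.85 ± 0.43 and -1.96 ± 0.40. Cyp4a12a stood at 303, 119, 412, 43.1 and 153 CPM in WT Con and at 19.2, 113, 254, 16.6 and 317 CPM in WT MR. Its NRF2 KO values ran from 74.0 over 136 to 277 CPM on Con and from 2.41 over 20.02 to 45.7 CPM on MR. Only 2 of the 5 WT MR mice were below all WT Con mice, against 6 of the 6 NRF2 KO MR mice, and the log2 fold changes were -0.52 ± 0.77 and -2.74 ± 0.75. In WT the Cyp4a12a value was -0.10 without WT_CON_7605 and -1.03 without WT_MR_7616.

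Slco1a1 encodes OATP1A1, an uptake transporter of organic anions on the sinusoidal membrane, and lies on chromosome 6 from 141907282 to 141946962. It stood at 353, 196, 449, 399.8 and 292 CPM in WT Con and at 4.45, 70.2, 203, 4.82 and 44.3 CPM in WT MR. Among NRF2 KO mice it ran from 363 over 425 to 562 CPM on Con and from 17.1 over 71.9 to 239 CPM on MR. In WT the groups overlapped through WT_MR_7613 alone, with log2 fold changes of -2.36 ± 0.77 in WT and -2.22 ± 0.70 in NRF2 KO. Slco1a1 was called lower in WT by edgeR, DESeq2 and limma on the 22 mice. In edgeR's fit it was not called with all 24 mice, without the low-count filter or with only the groups compared. Selenbp2, which encodes a selenium-binding protein and lies on chromosome 3 from 94693556 to 94704413, stood at 14.6, 6.46, 74.6, 23.6 and 18.1 CPM in WT Con and at 2.26, 4.05, 4.67, 0.753 and 2.25 CPM in WT MR. Its NRF2 KO values ran from 11.4 over 51.8 to 108 CPM on Con and from 1.23 over 3.87 to 15.3 CPM on MR. For this gene the WT groups did not overlap and the NRF2 KO groups did, and the log2 fold changes were -3.22 ± 0.79 and -3.20 ± 0.66.

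**Figure D3:**
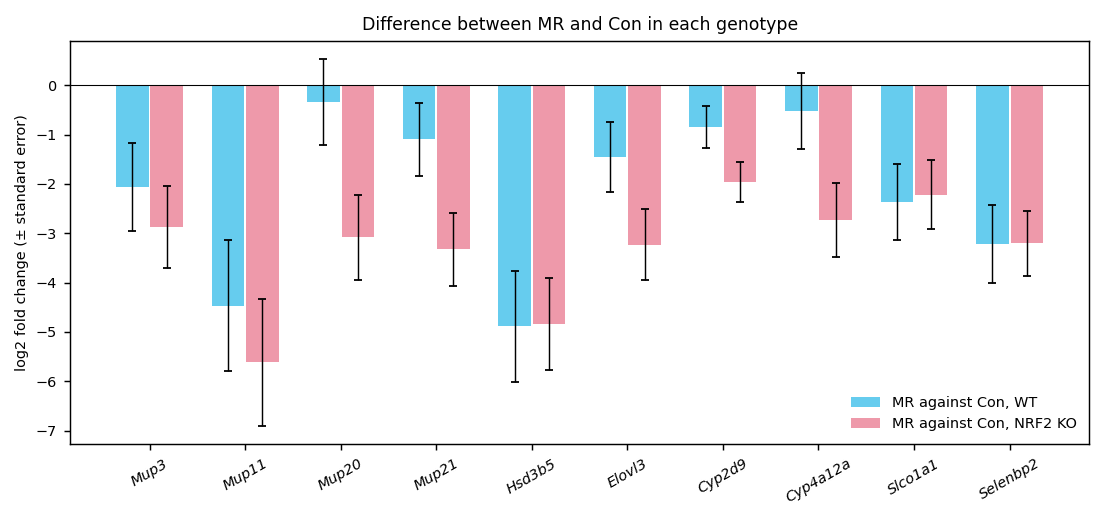
Log2 fold change of MR against Con for each of the 10 genes in WT and in NRF2 KO, with bars for the standard error of the edgeR model. Every bar is below 0, and in WT the standard errors of Mup20 and Cyp4a12a reach past 0.

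Counted over the 10 genes, the diet groups did not overlap for 2 in WT, Hsd3b5 and Selenbp2, where 4.0% of all genes tested were lower without overlap. In NRF2 KO they did not overlap for 8, the exceptions being Mup20 and Selenbp2, where 2.83% of all genes were. Over all 24 mice the median log2 fold change was -1.80 in WT with 3 genes called lower, and -3.14 in NRF2 KO with 8 called lower. The share of all genes called in that fit is not given here, so these counts are not set against those of the main fit. WT_MR_7612 was below every WT Con mouse of the fit for 10 of 10 genes, and WT_CON_7604, a control, was below all the other 5 WT Con mice for 7 of 10.

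Mice on MR differed from each other in these genes more than mice differed in most genes. The coefficient of variation between mice had a median over the 10 genes of 110% in WT MR and 91.7% in NRF2 KO MR, against 14.07% and 12.9% over all genes tested, and in both groups 10 of the 10 were above the 90th percentile of all genes. On Con the medians were 53.5% in WT and 42.1% in NRF2 KO, against 16.1% and 16.5%, and 7 and 5 of the 10 genes were above the 90th percentile. These spreads were not what the genes were chosen for, and they are given as a description.

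The same mice were high or low for most of the 10 genes. The mean over the 10 genes of the log2 difference from WT Con was -0.46 in WT_MR_7613, -1.95 in WT_MR_7611 and -1.93 in WT_MR_7616, but -4.98 in WT_MR_7609 and -4.90 in WT_MR_7615. In NRF2 KO MR it was -1.11 in KO_MR_7632, which had the highest value of its group for 10 of 10 genes, and -5.37 in KO_MR_7629, which had the lowest for 10 of 10. The other 4 lay between -3.70 and -3.07. WT_MR_7613 was the highest of its group for 9 of 10 genes, Cyp4a12a being the exception. The difference between genotypes on MR, given below, changes when these mice are left out.

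After each gene was centred on its group mean, the 45 pairs of the 10 genes had a median Pearson r of 0.84 over the 22 mice (range 0.48 to 0.95) and a median Spearman rho of 0.78 (0.39 to 0.96). Without WT_MR_7613 and KO_MR_7632, the mice farthest from the median, the median r was 0.77 over 20 mice (0.39 to 0.96). The median r of all other genes with the mean of the 10 was -0.01. Selenbp2 was least like the rest, with r of 0.67 with the mean of the other 9, and Mup21 most, with 0.96. These values are a description, because all genes of a mouse share 1 library.

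The genes outside the list whose centred levels were most like the mean of the 10 were Srd5a1, a steroid reductase (r = 0.96, rho = 0.94), Serpina3k, a serine protease inhibitor (0.95, 0.88), Mup18 (0.95, 0.90), Nudt7, a peroxisomal hydrolase of coenzyme A (0.94, 0.92), and C9, a complement component (0.93, 0.91), each over 22 mice. Srd5a1 ran from 30.4 to 49.6 CPM in WT Con, from 10.4 to 45.1 CPM in WT MR, from 31.6 to 43.7 CPM in NRF2 KO Con and from 12.8 to 32.3 CPM in NRF2 KO MR. Without the 2 farthest mice the r of these 5 genes was between 0.91 and 0.94.

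Genes that are higher in female liver, from a list of 19 of which 15 could be tested, went the other way in the same mice. All 15 had a negative r with the mean of the 10 genes, with a median of -0.63 and a range of -0.83 to -0.25. Cux2 was at 21.8 CPM in WT_MR_7609 and at 9.34 CPM in WT_MR_7615, the mice in which the 10 genes were lowest, and at 0.432 CPM in WT_MR_7613, in which they were highest. In the 5 WT Con mice it ran from 0.304 to 1.16 CPM. In NRF2 KO MR it was at 0.746 CPM in KO_MR_7632 and between 7.17 and 19.2 CPM in the other 5. Cyp2b13 was at 16.7 CPM in WT_MR_7615 and at 0.0 CPM in WT_MR_7613. WT_MR_7612, which is left out of the fit, held 28.2 CPM of Cux2, and WT_CON_7604, which was low for 7 of the 10 genes, held 0.482 CPM, inside the range of the WT Con mice.

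**Figure D4:**
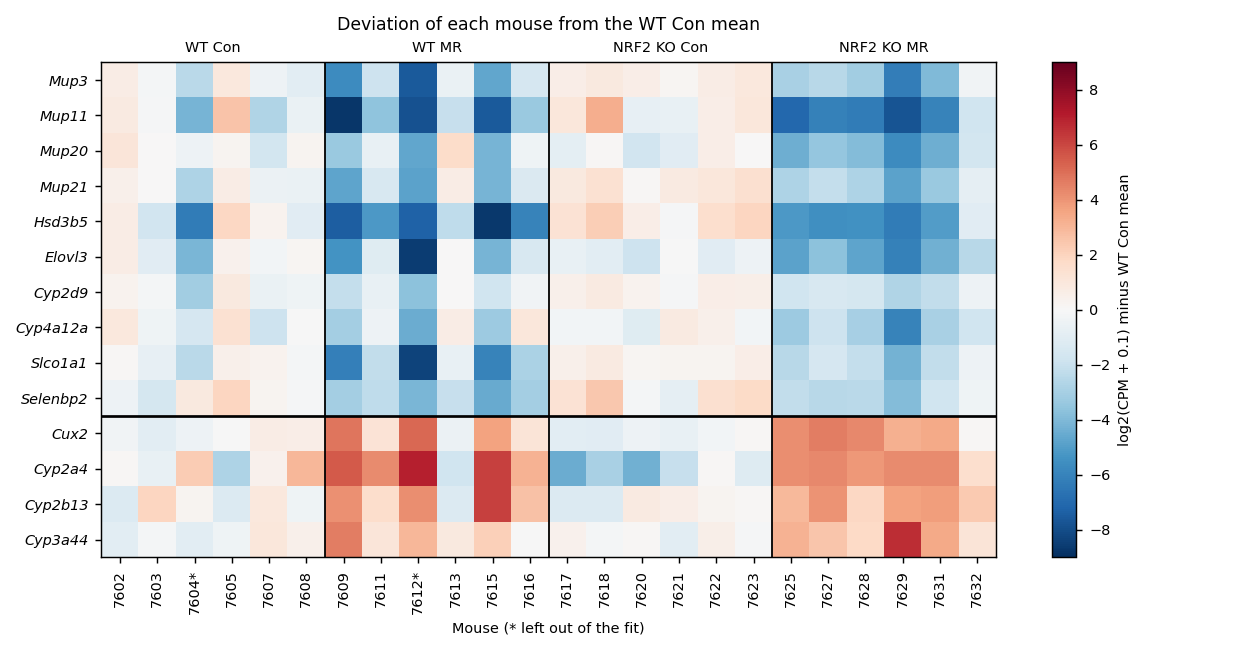
Deviation of log2(CPM + 0.1) in each of the 24 mice from the WT Con mean, for the 10 genes (upper rows) and 4 genes that are higher in female liver (lower rows). Red is higher and blue lower, with 24 columns of mice in 4 groups. MR mice with the deepest blue above have red below, KO_MR_7632 and WT_MR_7613 are paler above than the rest of their groups, and WT_CON_7604 is blue in most upper rows, with Cux2 near white and Cyp2a4 pale red.

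As groups, 6 of the 15 genes that are higher in female liver rose on MR in WT, where 6.91% of all genes tested rose, and 9 rose in NRF2 KO, where 6.23% did, with medians of 1.11 and 1.61. The genes that rose included Cyp2b13 (4.14, adjusted p = 0.018), Cyp2a4 (3.70, 0.034) and Cux2 (3.16, 0.026) in WT and Cyp2a4 (5.73, adjusted p = 0.0044), Cyp3a44 (5.31, 0.011) and Cux2 (4.57, 0.0027) in NRF2 KO, as log2 fold changes with adjusted p from edgeR. In WT the count ran from 2 to 7 with each mouse left out in turn, and was 1 with all 24 mice under sample quality weights. Cyp3a44 was at most 0.182 CPM in NRF2 KO Con. In NRF2 KO MR it had a median of 1.315 CPM, with 19.37 CPM in KO_MR_7629. Cyp2b13 was at most 0.836 CPM in WT Con, and Cux2 at most 1.16 CPM in WT Con and 0.738 CPM in NRF2 KO Con. The fold changes of Cyp3a44, Cyp2b13 and Cux2 therefore start from few reads. The list was compiled with earlier results of these data known.

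Of 15 other genes that are higher in male liver, 14 could be tested. In WT C6, a complement component (-1.89, adjusted p = 0.0022), and Susd4, a complement inhibitor (-2.05, 0.028), fell on MR, and Gstp1, a glutathione transferase, rose (1.62, 0.029), all by edgeR's test. In WT 6.91% of all genes tested were called lower. In NRF2 KO 5 of the 14 fell, where 6.34% of all genes did, with the largest differences in Cyp4a12b (-3.59), Susd4 (-2.33), C6 (-2.23) and Egfr, the receptor of epidermal growth factor (-1.22). Medians over the 14 genes were -0.63 for WT and -1.17 for NRF2 KO. All 14 had a positive r with the mean of the 10 genes over the 22 mice, with a median of 0.80. The WT count of genes called lower was 5 without WT_MR_7613 and 1 without WT_MR_7609.

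Within growth hormone signalling, Ghr, the receptor, fell on MR by edgeR's test in WT (log2 fold change -0.74, adjusted p = 0.0046) and in NRF2 KO (-0.81, 0.0013). It ran from 336 to 513 CPM in WT Con and from 191 to 289 CPM in WT MR, without overlap, and from 402 to 559 and from 202 to 418 CPM in NRF2 KO. Igf1, the hormone that the liver secretes in answer to growth hormone, fell by less, with -0.36 (adjusted p = 0.032) and -0.38 (0.016). Cux2, also of this pathway, rose. Jak2, Stat5a, Stat5b, Igfals, Socs2, Cish, Bcl6, Onecut1 and Hnf4a were called in neither genotype. Over the 22 mice the centred r with the mean of the 10 genes was 0.72 for Ghr, 0.65 for Igf1, 0.61 for Stat5b and -0.75 for Cux2, and between -0.09 and 0.07 for Jak2, Stat5a, Socs2 and Bcl6.

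Whether loss of hepatic NRF2 altered the 10 genes was tested within each diet. On Con 0 of the 10 were called in either direction by edgeR's quasi-likelihood test, where 2.07% of all genes tested were, and 0 of the 10 had an unadjusted p under 0.05, where 14.4% of all genes did. DESeq2 and limma on the deposited normalized values also called 0. The log2 fold changes of NRF2 KO against WT ran from -0.85 ± 0.66 for Elovl3 to 0.92 ± 0.80 for Hsd3b5, with a median of 0.44. Without the library labelled WT_CON_7607 the median was 0.30 and 0 were called. The standard errors, 0.41 for Cyp2d9 and 0.62 to 1.08 for the others, mean that differences of this size in either direction are not resolved.

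On MR 0 of the 10 genes were called by edgeR, where 1.93% of all genes were, but 3 had an unadjusted p under 0.05 (13.9% of all genes), and DESeq2 called these 3 lower in NRF2 KO (2.45% of all genes), while limma on the deposited normalized values called 0. They were Mup20, with a log2 fold change of -3.24 ± 0.89 (edgeR adjusted p = 0.066, DESeq2 adjusted p = 0.0066), Elovl3, with -2.63 ± 0.73 (0.069 and 0.0093), and Cyp4a12a, with -2.57 ± 0.77 (0.096 and 0.016). For each of them the NRF2 KO MR mice overlapped the WT MR mice, and 3, 1 and 2 of the 6 were below all WT MR mice. Mup20 and Elovl3 were called by edgeR without WT_MR_7609, without WT_MR_7615 or without KO_MR_7632. Without WT_MR_7613 they stood at -1.97 and -1.89. Among the other 7 genes Hsd3b5 (0.97 ± 1.22), Selenbp2 (0.89 ± 0.82) and Slco1a1 (0.54 ± 0.71) were on the other side of 0. The median over the 10 genes was -0.70, and it was 0.01 without WT_MR_7613 and -1.69 without KO_MR_7632. The summed Mup family passed the test of genotype on neither diet, with 0.37 on Con (adjusted p = 0.90) and -0.76 on MR (0.76) in edgeR's fit.

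**Figure D5:**
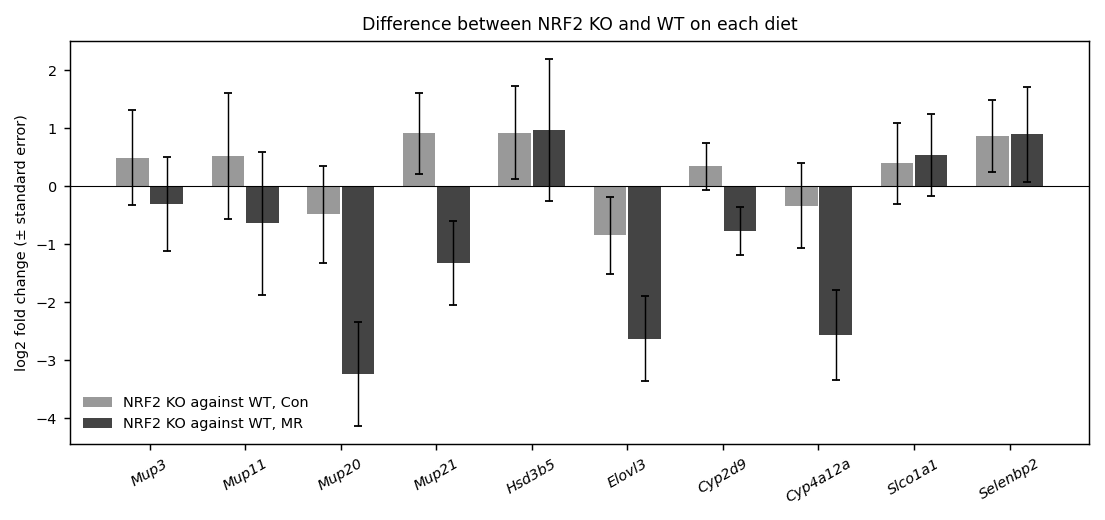
Log2 fold change of NRF2 KO against WT for each of the 10 genes on Con and on MR, with bars for the standard error of the edgeR model. On Con values lie between -0.85 and 0.92, and on MR Mup20, Elovl3 and Cyp4a12a lie between -3.24 and -2.57.

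The difference between the effects of MR in NRF2 KO and in WT, the interaction, was called for 0 of the 10 genes by edgeR, where it was called for 0.045% of all genes, and DESeq2 and limma called 0. Mup20 (-2.74 ± 1.20), Mup21 (-2.23 ± 1.00) and Cyp4a12a (-2.23 ± 1.06) had an unadjusted p under 0.05, where 7.56% of all genes did, with adjusted p of 0.63, 0.63 and 0.66 in edgeR. For Hsd3b5 (0.05 ± 1.40), Selenbp2 (0.02 ± 0.95) and Slco1a1 (0.15 ± 0.99) the interaction was near 0 with wide errors. That all 10 genes were called lower in NRF2 KO and 4 in WT is therefore not a tested difference between genotypes. The comparisons share mice: both genotype contrasts and the interaction use the same WT and NRF2 KO groups as the diet contrasts.

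Among the related lists, Gstp1 was lower in NRF2 KO than in WT on MR (log2 fold change -2.28, edgeR adjusted p = 0.0095), at 5.23 to 13.6 CPM against 29.4 to 51.4 CPM, without overlap, and Nat8f5, an acetyltransferase, was lower as well (-1.68, 0.035). Atp6v0d2, a subunit of the proton pump that is higher in female liver, was higher (1.05, 0.031). On Con 0 genes of these lists were called by genotype with edgeR, 1 with DESeq2. None of the 10 other Mup genes was called by genotype on either diet by edgeR, with 1 on Con at an unadjusted p under 0.05 and 0 on MR.

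Some other measures moved with these groups. A score of circadian clock genes ran from 0.78 to 3.93 in WT Con, from -0.90 to 1.40 in WT MR, from -1.04 to -0.36 in NRF2 KO Con and from -1.33 to -0.90 in NRF2 KO MR. Its highest value in WT MR, 1.40, was that of WT_MR_7613, while KO_MR_7632, at -1.08, lay inside the range of its group. With the score as a covariate the median log2 fold change of the 10 genes on MR was -0.85 in WT with 0 called, and -2.77 in NRF2 KO with 9 called. The share of all genes called in that fit is not given here, so these counts are not set against those of the main fit. The 5 bile duct markers Krt19, Krt7, Epcam, Sox9 and Spp1 summed to 49.0 to 72.7 CPM in WT Con, 20.9 to 28.3 in WT MR, 31.7 to 53.1 in NRF2 KO Con and 20.6 to 29.0 in NRF2 KO MR. The hepatocyte sum had medians of 117000, 92940, 131000 and 114600 CPM in the same order. The part of the clock score, of the bile duct markers and of the hepatocyte markers in the results above was not tested.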

How the data were processed

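The authors made 1 QuantSeq 3′ library from the liver of each of 24 mice. The count values are raw reads per gene as deposited by the authors, mapped and counted with the kit maker's pipeline; the submitters' processing notes name GRCm38, mm10, R 3.4.3 and DESeq2 1.18.1, and the aligner is not given in the sources used here. A deposited table of normalized signal holds those counts after division by a size factor for each mouse. Raw counts were fitted in R 4.3.3 with edgeR 4.0.16 (TMM, filter by expression, robust quasi-likelihood F-tests, 1 mean per group, 22 mice), with calls at an adjusted p under 0.05 (Benjamini-Hochberg over 13336 genes). Log2 CPM used a prior count of 2. Alternatives used limma 3.58.1 on the deposited signal, DESeq2 1.42.0, other scalings and filters, the groups compared only, all 24 mice without and with quality weights, a clock score as covariate, and each mouse left out in turn. The script was tested on simulated data. Depth in the 22 mice had a median of 15019792 counts, and with 1 library per mouse the error is that between mice. Sequences were read from RefSeq, and 3′ ends and positions from GENCODE M21. Protein identity was not analysed here.

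The 10 genes, the gene lists and the alternatives were chosen with earlier results of these data known. Of the related lists, the text names up to 4 called genes per list with the largest difference in a comparison, and the 5 genes most like the 10 in centred level. Some genes of these lists are not reported here.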

Additional observations from a re-analysis of the deposited data

Results flagged for a closer look

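Values of 1 mouse stood far from those of its group, by Dixon's criterion at 95%, in 13 of the 40 sets of values formed by 10 genes and 4 groups. Chance would give about 2 if the values were normally distributed. The criterion was applied to CPM and not to log2 values, and all 13 were the highest value of their group. An excess over chance can therefore come from the scale, and nothing is read from it. Of these, 7 belonged to KO_MR_7632, the highest mouse of its group, with 3315 CPM of Mup3, 38.1 of Mup11, 166 of Mup20, 41.8 of Mup21, 20.2 of Hsd3b5, 332 of Cyp2d9 and 15.3 of Selenbp2. WT_MR_7613 was the highest of its group in 3, with 1594 CPM of Mup20, 119 of Mup21 and 8.13 of Hsd3b5. Among the Con mice, WT_CON_7605 stood apart with 790 CPM of Mup11 and 74.6 of Selenbp2, and KO_CON_7618 with 1253 CPM of Mup11. The genes vary together between mice, so these 13 are not separate events.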

How the results depend on the processing

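No paired analysis was possible because the replicate numbers are animal numbers and no 2 groups share one. Scaling by library size alone shifted the median of all genes by 0.09 for MR in WT and 0.15 for MR in NRF2 KO, and turned the direction of none of the 10 genes. The cause of the changes below was not tested, and the share of all genes called in each fit is not given beside the counts. With each mouse left out in turn, 2 to 5 of the 10 genes were called lower on MR in WT and 6 to 10 in NRF2 KO, the lowest without KO_MR_7625, and 0 to 2 by genotype on MR. Without WT_CON_7605, WT_MR_7609, WT_MR_7611, WT_MR_7615 or WT_MR_7616 the 2 called in WT were Hsd3b5 and Selenbp2. Among these fits Slco1a1 was called in WT only without WT_MR_7613, KO_MR_7629 or KO_MR_7632.

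Of the alternatives without a mouse left out, the clock score moved most: 0 genes called for MR in WT with Mup20 (0.72) and Cyp4a12a (0.19) turned, a median of 1.93 for genotype on Con, and other directions by genotype for Mup20 (1.80), Elovl3 (0.68) and Cyp4a12a (0.83) on Con and for Mup3 (0.87), Mup11 (0.50), Mup21 (0.22) and the Mup sum (0.54) on MR, and in the interaction for Hsd3b5 (-0.40) and Slco1a1 (-0.29). Quality weights turned Cyp4a12a on Con (0.08) and the interaction of Hsd3b5 (-0.79) and Selenbp2 (-0.22), and limma that of Selenbp2 (-0.16). DESeq2 called 3 genes by genotype on MR, and the fit of only the groups compared called 2 for MR in WT. Leaving out 1 mouse turned directions by genotype within these ranges: on Con Mup11 (-0.48 to 1.64) and Cyp4a12a (-0.60 to 0.07), and on MR Mup3 (-1.41 to 0.32), Mup11 (-3.05 to 0.18), Hsd3b5 (-1.21 to 2.86) and the Mup sum (-1.86 to 0.04). In the interaction the ranges were -2.13 to 1.94 for Hsd3b5, -0.37 to 1.20 for Slco1a1 and -0.79 to 0.39 for Selenbp2.

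For the related lists, on MR in WT the counts called with the clock score and with only the groups compared were 1 and 1 for the other male-biased genes lower, 1 and 0 for the other Mup genes lower, 1 and 1 for the signalling genes, and 0 and 1 for the female-biased genes higher, which were 2 with limma and 1 with quality weights. With each mouse left out the ranges were 1 to 5, 0 to 9, 1 to 3 and 2 to 7 in the same order, and in NRF2 KO 4 to 9 for the other male-biased genes. By genotype on Con DESeq2 called 1 gene of these lists (range with mice left out 0 to 1), on MR all 24 mice gave 2 and the clock score 1 (range 2 to 4), and in the interaction library size only, DESeq2 and quality weights gave 1 each (range 0 to 1).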
